A study of Mus musculus with 6 samples.

Results

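The miR-297, miR-466, miR-467 and miR-669 families are rodent microRNAs (miRNAs), short RNAs that pair with mRNAs and lower their output. They were read here as 72 of the 1078 reporters on arrays of cultured vascular smooth muscle cells (VSMCs) of the mouse, which build the muscular layer of arteries. The members are all reporters whose name carries 1 of these 4 family numbers, a rule that uses no measured value, although results of these data were known when the families were taken up. The donor animals were C57BL/6 mice, 8 weeks old, whose abdominal aorta supplied the cells, and all cultures, control and treated, had been passaged repeatedly. Untreated cultures (3 arrays) were set against cultures given TNF-α, an inflammatory cytokine (3 arrays), of unstated dose and duration. The smooth muscle miRNAs miR-143 and miR-145 lay above background on all 6 arrays. Of 5 blood cell and 5 epithelial markers none did so, and summed densities in these 2 lists ran from 361 to 392 and from 352 to 362 on control arrays and from 384 to 445 and from 364 to 434 with TNF-α. The endothelial marker miR-126-3p was above background on 5 of the 6 arrays and miR-126-5p on none. In RNA from whole cultures, fewer cells of a type and less RNA per cell cannot be told apart.

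Most hairpins of these families sit as a dense array of repeats in an intron of Sfmbt2, an imprinted Polycomb-group gene whose paternal copy is expressed, and they are known from the placenta and from embryonic stem cells. A hairpin yields a 5p and a 3p arm, either of which can be loaded into Argonaute, and the seed, bases 2 to 8, does most of the pairing with a target. In the RefSeq gene table (GRCm38.p6), 71 of the 81 miRNA genes with these family numbers lie inside Sfmbt2 on chromosome 2 and 10 lie elsewhere. By name, 55 of the 72 reporters belong to hairpins found only inside Sfmbt2 and 9 to hairpins found only elsewhere. Another 5 have hairpins in both places and 3 matched no gene of their name. The working name "Sfmbt2-type" therefore does not hold for miR-466i, miR-466j, miR-466k, miR-466q, miR-467f, miR-467g, miR-467h and miR-669n, whose genes lie outside that locus.

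RefSeq held a mature sequence under the same name for 8 of the 72 members. They are shown because they fall into 2 kinds of simple repeat that mirror each other, and because members of the same kind differed in density and in their change. Capitals mark the seed.
miR-466i-3p: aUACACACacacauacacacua
miR-466q: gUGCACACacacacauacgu
miR-467f: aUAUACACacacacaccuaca
miR-467g: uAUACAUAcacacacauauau
miR-466j: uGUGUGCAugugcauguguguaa
miR-466k: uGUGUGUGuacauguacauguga
miR-467h: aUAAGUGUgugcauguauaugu
miR-669n: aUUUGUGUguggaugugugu
The first 4 hold ACACAC, with alternating C and A over 9 to 12 bases, and the last 4 hold GUGUGU, with alternating G and U over 7 to 9 bases. Read along the mature strand, ACACAC occurs in 0.66% and GUGUGU in 1.01% of the 1679 mature sequences of the table. No 2 of the 8 have the same seed, and no other reporter with a matched sequence has any of these seeds. Within the ACACAC kind the longest identical stretch was 11 to 14 bases, 14 of them between miR-466i-3p and miR-466q. Across the kinds, miR-466k was complementary over 10 bases to miR-466i-3p, miR-467f and miR-467g. Without the array's probe sequences, how far such neighbours share signal was not tested.

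By RefSeq (GRCm38.p6), miR-466q (chr3:28419988-28420007, plus strand) lies within the span of Tnik, miR-669n (chr3:115979905-115979924, plus strand) within Slc30a7 and miR-466i-3p (chr13:17747552-17747573, plus strand) within Cdk13. miR-467f (chr11:69635419-69635439, minus strand) lies within Fxr2 and miR-467g (chr5:34732872-34732892, minus strand) within Grk4. miR-466k (chr3:85467396-85467418, plus strand) lies within the noncoding gene Gm31419. miR-466j (chr10:60960802-60960824, plus strand) and miR-467h (chr9:115381898-115381919, plus strand) lie in no other annotated gene. Exons are not part of the gene table used.

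Each array gave 1 median density per reporter, a linear scanner intensity that includes background. The background peak, where most dim reporters lie, ran from 68.4 to 76.8 in the controls and from 82.0 to 91.4 with TNF-α. A reporter counted as above background when it exceeded that peak by 3 SD of the values below it, which set the limit between 93.9 and 103.8 in the controls and between 118 and 132 with TNF-α. The peak thus separated the groups, and its part in the changes of dim reporters was not tested beyond fits with the peak subtracted, which are given beside them. Changes are given on the log2 scale, TNF-α minus control, after background correction, an offset of 50 and quantile normalization, with a standard error (SE) from limma. The offset makes them smaller at low densities and has little effect at high ones, where their size still depends on the normalization. Densities are given in the order of replicates 1 to 3, numbered by the sample titles. The descriptions of the second and the third TNF-α sample carry the same replicate number, a conflict that the labels do not settle.

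Of the 72 reporters, 32 were above background on all 6 arrays, 7 on some and 33 on none. With TNF-α, 10 passed as higher and 4 as lower (limma, adjusted p under 0.05 over all 1078 reporters, where 7.79% were higher and 7.24% lower). Both directions occurred among the 32 reporters above background throughout, with 4 higher and 4 lower, beside 16.3% higher and 13.4% lower of all 202 such reporters. The median change was -0.029 over these 32 and 0.0012 over the 170 reporters of other miRNAs in that class. Without normalization, which moved the median of all reporters to 0.16, 28 members were higher and 4 lower, beside 271 and 45 of all 1078 reporters. The processed values of the authors gave 14 members higher and 9 lower, beside 75 and 117 of all reporters. Without control replicates 2 or 3 the number of members higher was 6 and 5, beside 37 and 48 of all reporters.

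**Figure D1:**
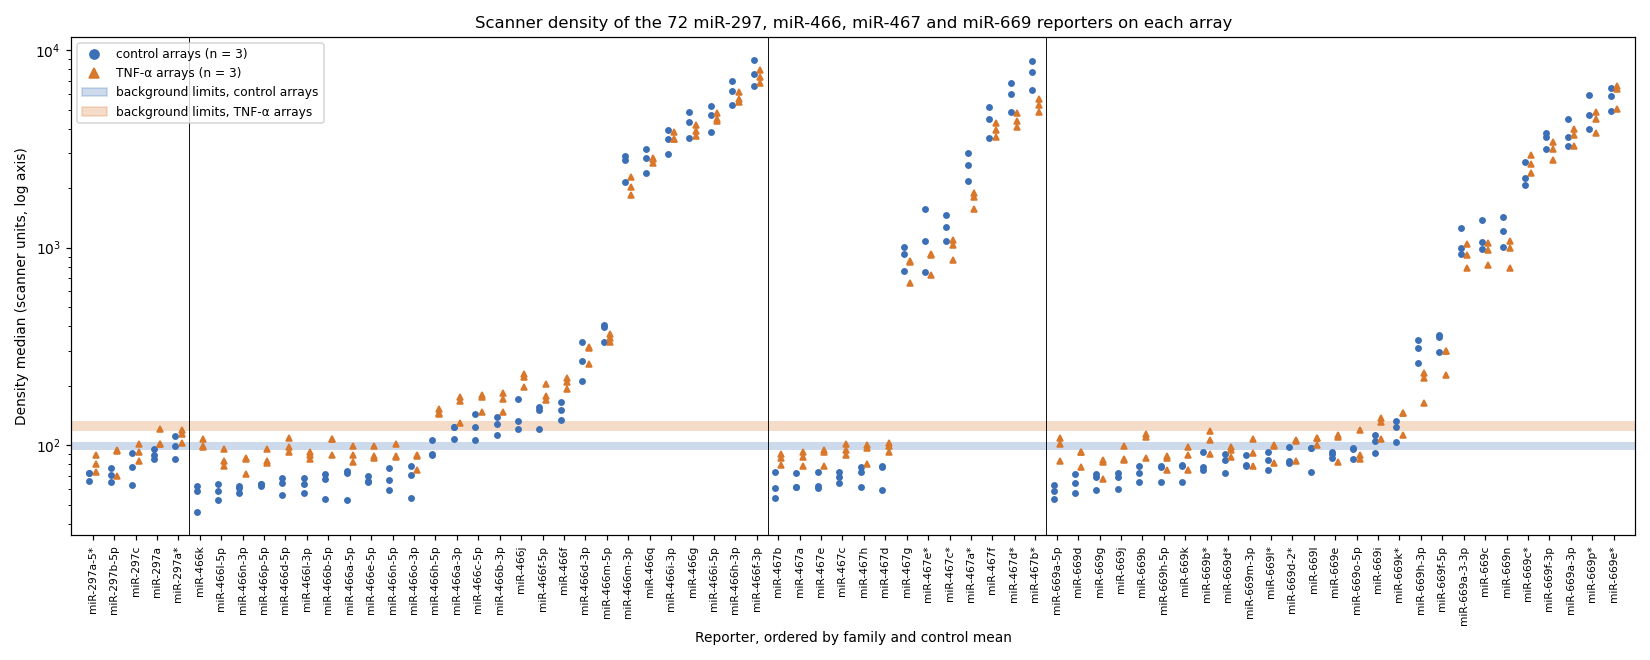
Density median on a log axis for each of the 72 reporters, grouped by family and ordered by control mean, with a circle for each control array, a triangle for each TNF-α array and bands for the range of background limits. miR-467 falls into 6 reporters at background and 7 above it, whereas the 5 miR-297 reporters all stay near the bands.

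Presence above background split by arm as well as by family. It was found on all 6 arrays for 11 of 15 reporters named 3p and 8 of 15 marked with a star, against 5 of 17 named 5p and 8 of 25 with no arm in the name. A star is the older mark for the less abundant arm. Of 24 hairpin names with more than 1 reporter, 11 had 1 arm above background on every array and the other on none, 5 had all their reporters above it, 4 had none and 4 were mixed. By family, 15 of 27 miR-466 reporters, 7 of 13 miR-467 reporters, 10 of 27 miR-669 reporters and 0 of 5 miR-297 reporters were above background throughout.

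In the miR-467 family 3 of 13 reporters fell and 0 rose, beside 7.24% lower and 7.79% higher of all 1078 reporters. All 5 star arms, miR-467a* to miR-467e*, were above background on every array, and 3 of them fell, whereas their partner arms miR-467a to miR-467e exceeded background on no array. miR-467b has been linked to lipoprotein lipase in macrophages. miR-467b* read 7718, 8835 and 6278 on the control arrays and 5641, 5265 and 4884 with TNF-α. The groups did not overlap, and miR-467b* was 1.53-fold lower (-0.61 ± 0.071, SE, n = 3 per group, adjusted p = 0.00185). miR-467d* read 5969, 6818 and 4883 on the control arrays and 4808, 4355 and 4097 with TNF-α. It too fell without overlap, by 1.30-fold (-0.38 ± 0.071, adjusted p = 0.0114). miR-467a* read 2628, 2997 and 2163 on the control arrays and 1899, 1798 and 1566 with TNF-α, and was 1.31-fold lower (-0.39 ± 0.10, adjusted p = 0.0325). The mean densities of miR-467b* were 7610.2 ± 1282 against 5263 ± 379 (SD, n = 3), and those of miR-467d* were 5890.0 ± 969.5 against 4420.3 ± 360.0.

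The call of miR-467b* held under all 18 alternatives, with adjusted p of 0.00017 to 0.0256 in limma and changes from -0.65 to -0.48. Its change was -0.52 without normalization, -0.48 with median scaling, -0.50 with cyclic loess and -0.62 with the smaller offset. The call of miR-467d* was lost with the smaller offset (-0.38). The call of miR-467a* was lost without control replicates 2 (-0.32) or 3 (-0.38) and without TNF-α replicates 1 (-0.41), 2 (-0.34) or 3 (-0.43), and with the smaller offset and after subtraction of the background peak (-0.40 in both). Of the markers of other cell types, 2 that were above background on all 6 arrays fell as well: miR-290-5p of stem cells and early embryo (311, 328 and 281 against 222, 242 and 167; -0.53 ± 0.11, adjusted p = 0.0149) and miR-206 of striated muscle (277, 256 and 237 against 199, 198 and 168; -0.49 ± 0.072, adjusted p = 0.00454). Among 7 stem cell and early embryo markers, the other 6 exceeded background on no array. Their changes were all positive, from 0.077 to 0.26, and did not pass. The summed density of the list ran from 678 to 755 on control arrays and from 668 to 812 with TNF-α. The summed density of the 2 striated muscle markers ran from 325 to 369 and from 266 to 311. Above background on no array, miR-142-5p of blood cells (-0.32 ± 0.088, adjusted p = 0.0381 in limma) and miR-122 of liver (-0.26 ± 0.068, adjusted p = 0.0328) passed as lower too. The part of such cells in the falls was not tested. The miR-467 star reporters come from Sfmbt2 hairpins, 10 of them for miR-467a and 1 for each of the others.

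The other star arms did not pass. miR-467c* read 1266, 1457 and 1075 on the control arrays and 1095, 1026 and 861 with TNF-α, with a change of -0.11 ± 0.11 and a 95% interval of -0.37 to 0.15. miR-467e* read 1565, 1075 and 754 on the control arrays and 925, 915 and 725 with TNF-α and had the widest spread of the star arms, with an interval of -0.53 to 0.30. miR-467c* passed as lower after median scaling (-0.31) and in the authors' processed values (-0.38). The 2 bright miR-467 reporters with no arm in their name have genes outside Sfmbt2, and they did not pass either. miR-467f read 4481, 5134 and 3591 on the control arrays and 4252, 3955 and 3638 with TNF-α (change -0.063 ± 0.093) and miR-467g read 930.2, 1009 and 760.0 on the control arrays and 842, 857 and 663 with TNF-α (-0.011 ± 0.083). Both hold the ACACAC repeat shown above, and the densities of the groups overlapped for each.

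In the miR-669 family 1 of 10 reporters above background throughout fell and 0 rose, beside 13.4% lower and 16.3% higher of all 202 such reporters. miR-669h-3p read 312, 342 and 261 on the control arrays and 218, 231 and 164 with TNF-α. All TNF-α arrays lay below all control arrays, and miR-669h-3p was 1.52-fold lower (-0.61 ± 0.098, adjusted p = 0.00711), a call that held under all 18 alternatives. The size of the change of miR-669h-3p ran from -0.79 in the authors' processed values to -0.46 with the larger offset. Its mean density was 305 ± 40.8 against 204 ± 35.3 (SD, n = 3). The other arm of that hairpin, miR-669h-5p, exceeded background on no array (change -0.071). miR-669f-5p gave 354, 361 and 296.8 against 300.5, 301 and 226 and did not pass (-0.25 ± 0.11, adjusted p = 0.151); it passed as lower after median scaling (-0.27) and in the authors' processed values (-0.42).

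The remaining 8 miR-669 reporters above background had changes from -0.10 to 0.31. miR-669c* read 2727, 2264 and 2079 on the control arrays and 2649.6, 2952 and 2389.6 with TNF-α, a change of 0.31 ± 0.095 (adjusted p = 0.0552) that passed under 5 of 18 alternatives, each a filter, a larger offset or another variance model. Its partner miR-669c read 1384, 1067 and 987 on the control arrays and 976, 1053 and 818 with TNF-α (0.037 ± 0.10). Both arms of that hairpin were thus above background, their densities overlapped between the groups, and neither passed. miR-669a, whose hairpins number 12 in Sfmbt2, has been described as a repressor of MyoD in cardiac progenitors. miR-669a-3p read 4453, 3638 and 3256 on the control arrays and 3730.4, 3999 and 3259.9 with TNF-α (0.044 ± 0.091), and miR-669a-3-3p, named for 1 copy, read 1249, 998 and 933 on the control arrays and 922, 1048 and 784 with TNF-α (0.11 ± 0.10). Both overlapped between the groups.

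miR-669e*, at 5844, 6465 and 4929.9 on the control arrays and 6609, 6372 and 5058 with TNF-α, changed by -0.047 ± 0.084. miR-669f-3p read 3613, 3798 and 3139 on the control arrays and 3171, 3425 and 2770.1 with TNF-α (-0.10 ± 0.069). Its normalized values were lower on every TNF-α array. miR-669p* read 5937, 4715 and 3968 on the control arrays and 4483, 4873 and 3823 with TNF-α (-0.057 ± 0.13). None of these passed, and their densities overlapped between the groups. miR-669n, the GUGUGU member shown above that lies outside Sfmbt2, read 1425, 1219 and 1011 on the control arrays and 993, 1082 and 785 with TNF-α; it did not pass (-0.063 ± 0.093) except as lower with median scaling (-0.32).

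In the miR-466 family 9 of 27 reporters rose and 0 fell, beside 7.79% higher and 7.24% lower of all 1078 reporters. Of the 15 above background throughout, 4 rose, each with a mean density under 250, and the others are given first. miR-466f-3p read 8926, 7603 and 6569.6 on the control arrays and 7286, 7883 and 6827 with TNF-α (-0.080 ± 0.097) and miR-466h-3p 6949, 6202 and 5279 against 5685, 6140.2 and 5471 (-0.21 ± 0.076, adjusted p = 0.0919). miR-466m-3p read 2774, 2899 and 2155 on the control arrays and 2029, 2264 and 1849.9 with TNF-α (-0.22 ± 0.075, adjusted p = 0.079). After normalization all TNF-α values of miR-466h-3p and miR-466m-3p lay below all control values, and they passed as lower under 3 and 5 of 18 alternatives.

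miR-466i, encoded outside Sfmbt2, was read well above background on both arms. miR-466i-5p gave 5184, 4672 and 3869 against 4369, 4823 and 4472 (0.098 ± 0.084) and miR-466i-3p 3929, 3565 and 2969 against 3562, 3866 and 3564 (0.16 ± 0.079). miR-466g gave 4878, 4326 and 3595 against 3879, 4164 and 3687 (-0.0067 ± 0.072) and miR-466q 2842, 3163 and 2382 against 2826, 2822 and 2669.8 (0.13 ± 0.070). The groups overlapped in density for all 4 reporters, although the normalized values of miR-466q were higher on every TNF-α array. At lower densities, miR-466m-5p gave 406, 398 and 333 against 363, 347 and 331 (-0.046 ± 0.072, lower in the authors' processed values at -0.20) and miR-466d-3p 332, 265 and 212 against 313, 309 and 257 (0.20 ± 0.11). Neither passed, and the interval for miR-466d-3p ran from -0.042 to 0.45.

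The 6 miR-466 reporters above background throughout with a mean density under 250 all read higher with TNF-α on every array, and 4 of them rose. Of 57 reporters of other miRNAs in that class and range, 11 read higher on every TNF-α array, as did 39 of all 202 reporters above background throughout. miR-466j, from outside Sfmbt2, read 172, 132 and 121 on the control arrays and 220.0, 228 and 197 with TNF-α, a rise of 1.45-fold (0.53 ± 0.11, adjusted p = 0.0146). miR-466f read 165, 149.9 and 135 on the control arrays and 218, 208 and 192 with TNF-α and rose 1.28-fold (0.35 ± 0.075, adjusted p = 0.0156). miR-466c-5p read 144, 124 and 106 on the control arrays and 175, 180.1 and 147 with TNF-α (1.26-fold, 0.33 ± 0.091, adjusted p = 0.0381), and miR-466b-3p read 139, 127.7 and 113 on the control arrays and 183, 171 and 147 with TNF-α (1.25-fold, 0.33 ± 0.075, adjusted p = 0.0214). None of these groups overlapped. The other 2, miR-466f-5p (155, 151 and 121 against 176, 203 and 168; 0.28 ± 0.090) and miR-466a-3p (124, 124 and 107 against 166, 174 and 129.6; 0.27 ± 0.088), had an adjusted p of 0.0653 and 0.0655 and each passed under 6 of 18 alternatives.

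Each of these 4 calls depended on single arrays. Without control replicate 2 all 4 were lost (miR-466j 0.46, miR-466f 0.31, miR-466c-5p 0.31, miR-466b-3p 0.31), and likewise without control replicate 3 (0.47, 0.34, 0.27 and 0.30). miR-466c-5p was also lost without TNF-α replicates 1 (0.35), 2 (0.30) or 3 (0.36) and in the authors' processed values (0.44). With the smaller offset miR-466f (0.47), miR-466c-5p (0.48) and miR-466b-3p (0.46) did not pass, and after subtraction of the peak miR-466j (0.64) and miR-466c-5p (0.42) did not. With the larger offset the changes of miR-466c-5p and miR-466b-3p were 0.21 each. Conversely, miR-466a-3p passed without TNF-α replicate 3 (0.35) and miR-466f-5p without TNF-α replicate 1 (0.36). Subtracting each array's background peak from its density, the median over the 6 reporters was 61.3 on control arrays and 86.9 with TNF-α. Over 57 reporters of other miRNAs in the same range it was 94.6 and 84.2, and 6 of these 57 rose and 6 fell. The range was chosen after the values were seen, so the counts only describe it.

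**Figure D2:**
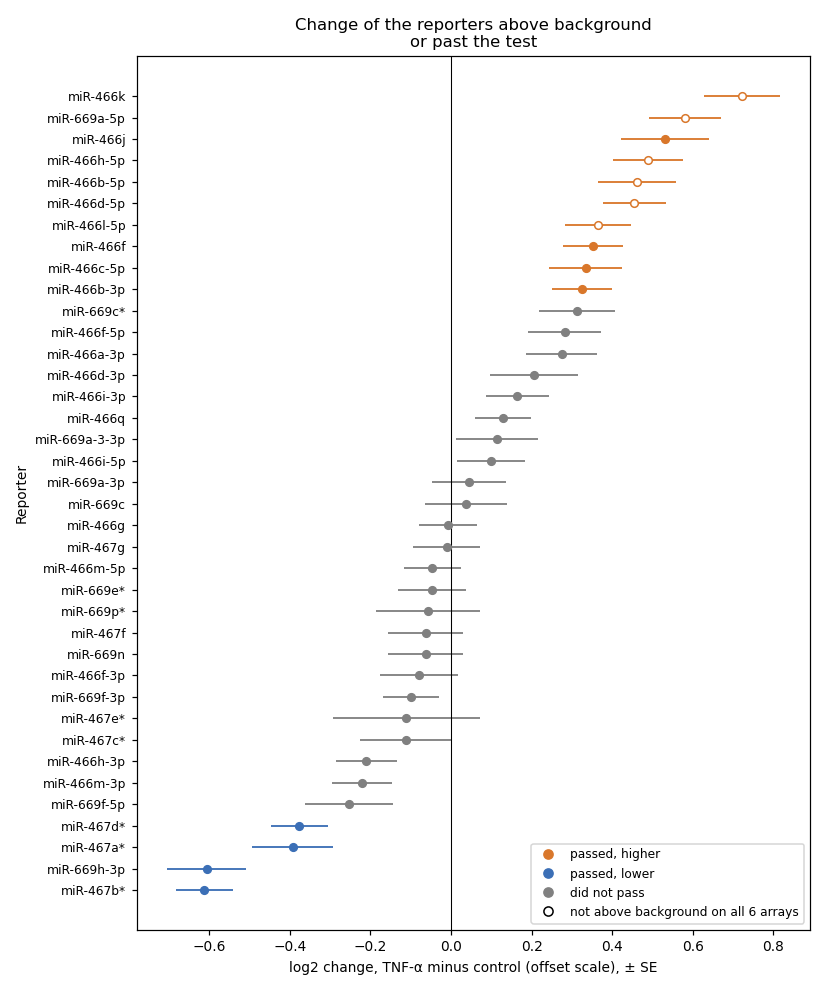
Change of the 38 reporters that were above background on all 6 arrays or passed the test, as log2 TNF-α minus control with SE from limma (n = 3 per group); open symbols were not above background on all 6 arrays. The 4 falls are miR-467a*, miR-467b*, miR-467d* and miR-669h-3p, and 9 of the 10 rises are miR-466 reporters.

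Higher densities with TNF-α reached into the reporters at background. miR-466h-5p, reported to promote apoptosis in hamster cells, read 106, 89.8 and 88.8 on the control arrays and 152, 145 and 143 with TNF-α and exceeded background on 1 control and 3 TNF-α arrays. It rose (0.49 ± 0.087, adjusted p = 0.0102), and since its controls lay mostly at background no fold is given. The call held under all 18 alternatives, but the size of the change ran from 0.29 with the larger offset to 0.77 with the smaller, and was 0.64 with the peak subtracted. Its partner miR-466h-3p lay on the other side of 0, as given above. The 6 other reporters above background on some arrays, miR-297a*, miR-669d-2*, miR-669i, miR-669k*, miR-669l and miR-669o-5p, did not pass and had changes from -0.16 to 0.12.

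Of the 33 reporters above background on no array, 5 passed as higher and 0 as lower, beside 5.5% higher and 4.51% lower of all 709 such reporters. At an unadjusted p under 0.05 in limma, 16 were higher and 0 lower, beside 96 higher and 78 lower of the 709. No fold is given for them because neither group was above background. miR-466k read 58.5, 62.2 and 45.7 on the control arrays and 97.3, 108 and 99.0 with TNF-α (change 0.72 ± 0.094, adjusted p = 0.00279). Relative to the background peak of the same array these values are -14.6, -14.6 and -22.7 against 6.43, 16.2 and 17.0. miR-466k thus lay under the peak on every control array and over it on every TNF-α array.

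miR-669a-5p (62.8, 58.6 and 53.6 against 109, 102 and 82.9; 0.58 ± 0.089), miR-466b-5p (71.5, 67.5 and 53.4 against 107, 108 and 89.1; 0.46 ± 0.097) and miR-466d-5p (67.9, 64.4 and 56.1 against 109, 98.2 and 92.3; 0.46 ± 0.079) crossed the peak in the same way, as did miR-467c, which did not pass (0.24 ± 0.071). miR-466l-5p read 58.7, 63.7 and 52.8 on the control arrays and 83.5, 95.6 and 78.0 with TNF-α (0.37 ± 0.082, adjusted p = 0.02), and its hairpin has been linked to the stability of IL-10 mRNA in macrophages. It lay under the peak on every control array and on 2 of the 3 TNF-α arrays. When the peak was subtracted before the fit, the calls of miR-466k (0.35), miR-669a-5p (0.26), miR-466d-5p (0.31) and miR-466l-5p (0.041) were lost, and that of miR-466b-5p was kept (0.34, adjusted p = 0.0273). The size of these 5 changes depended on the offset. With the smaller offset it was 1.91 for miR-466k, 1.47 for miR-669a-5p, 1.06 for miR-466b-5p, 1.04 for miR-466d-5p and 1.00 for miR-466l-5p, and with the larger 0.35, 0.28, 0.23, 0.23 and 0.17. miR-466l-5p also lost its call when control replicate 1 (0.36), control replicate 3 (0.35), TNF-α replicate 2 (0.29) or TNF-α replicate 3 (0.37) was left out, and in the authors' processed values (0.17), and miR-466b-5p lost its call without control replicate 2 (0.47) and was 0.70 in the authors' processed values.

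The position of the dim reporters relative to the peak is given here beside that of other dim reporters. Of the 33, 17 lay under the background peak on all 3 control arrays, as did 214 of 676 dim reporters of other miRNAs. The median distance to the peak was -5.17 on control arrays and 2.94 with TNF-α for the 33, and 0.025 and -2.36 for the others. A crossing from under the peak on all control arrays to over it on all TNF-α arrays occurred for 5 of the 33 and 14 of the 676. These counts are descriptions of the same 6 arrays and were not tested.

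**Figure D3:**
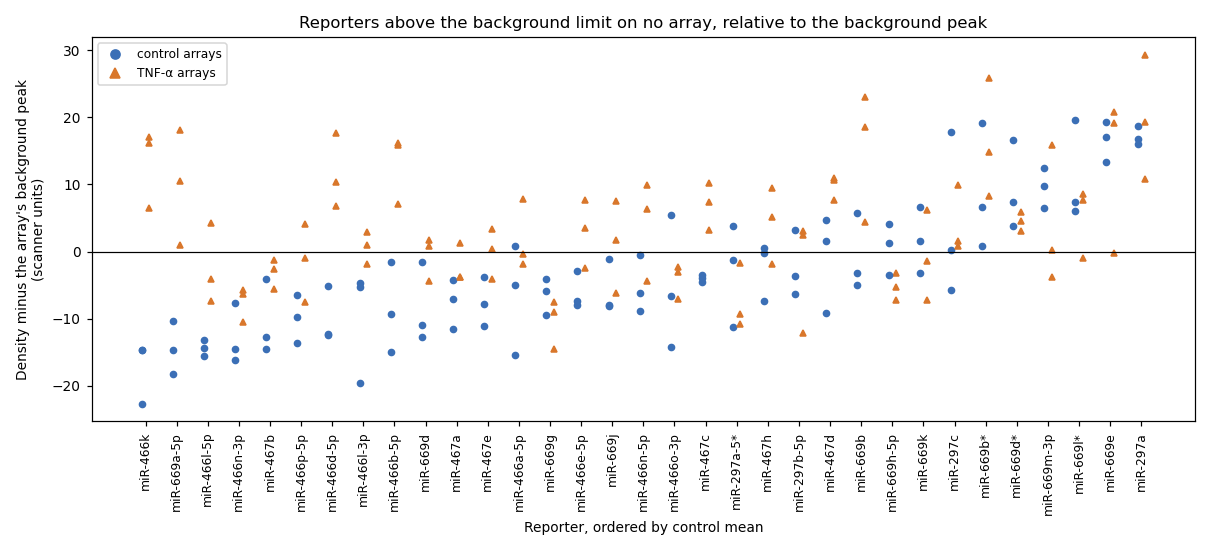
Density minus the background peak of the same array for the 33 reporters above background on no array, ordered by control mean, with circles for control arrays and triangles for TNF-α arrays. miR-466k lies at -14.6, -14.6 and -22.7 on control arrays and at 6.43, 16.2 and 17.0 with TNF-α, while reporters at the right, such as miR-297a, overlap.

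By family, the change at background was positive for all 11 dim miR-466 reporters (median 0.24) and all 6 dim miR-467 reporters (median 0.22), of which 4 and 0 passed. Of all 709 reporters at background, 377 had a positive and 332 a negative change (median 0.013). Among the dim miR-467 reporters, miR-467b read 60.3, 72.7 and 53.9 on the control arrays and 89.6, 85.8 and 79.4 with TNF-α. It did not pass (0.25 ± 0.094) and lay under the background peak on every array, whereas its bright star arm fell. Of 12 dim miR-669 reporters 5 had a positive and 7 a negative change (median -0.017), and 1 passed. The miR-297 family, with changes from -0.022 to 0.056, had no reporter past the test in either direction. miR-297a read 89.1, 95.6 and 85.1 on the control arrays and 102, 121 and 101 with TNF-α and miR-297c 90.9, 77.0 and 62.6 against 92.5, 101 and 82.9, all within or under the band of background limits.

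Over all 72 reporters the normalized TNF-α values lay above all control values for 25 and below them for 8, beside 17.2% and 18.6% of all reporters on the arrays. The 4 that fell also had no overlap in unprocessed density. They were 4 of the 32 members above background throughout, beside 36 of all 202 such reporters with all TNF-α densities below all control densities. Of all 1078 reporters 47 had this. In unprocessed density 30 of the 72 and 412 of the 1078 lay higher on every TNF-α array, while the background was higher on those arrays as well.

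**Figure D4:**
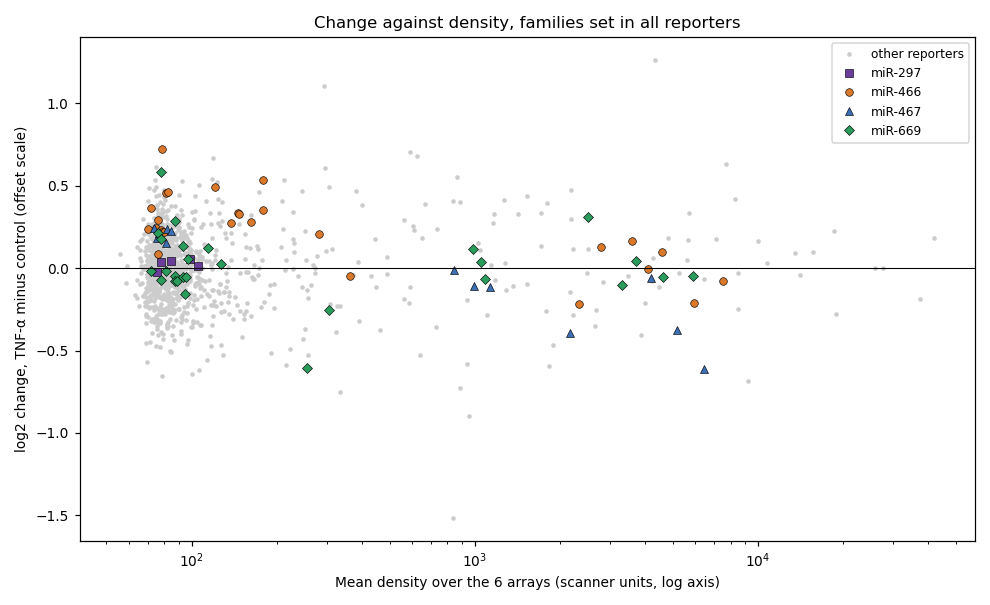
Log2 change, TNF-α minus control, against the mean density over the 6 arrays on a log axis, with 1 symbol per family and other reporters in grey. miR-466 reporters with a mean density under 250 lie above 0, and the lowest miR-467 symbols, miR-467a*, miR-467d* and miR-467b*, lie at densities over 1000.

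By location, both directions occurred among Sfmbt2 hairpins. Of the 55 reporters from Sfmbt2 alone, 7 rose and 4 fell, beside 7.79% higher and 7.24% lower of all 1078 reporters. Their median change was 0.044, and 21 were above background throughout. Of these 21, 2 rose and 4 fell, with a median change of -0.057, beside 16.3% higher and 13.4% lower of all 202 such reporters. Of the 9 from elsewhere alone, 7 were above background throughout. Of the 9, 2 rose (miR-466j, and miR-466k, which was above background on no array) and 0 fell, with a median of 0.13. At an unadjusted p under 0.05 in limma, 2 were higher and 0 lower, beside 163 and 166 of all 1078. The difference between the 2 sets was not tested. The table lists 1 further miRNA gene inside Sfmbt2, Gm25285, which has no reporter of that name.

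The same counts follow by repeat type, to be set beside 7.79% higher and 7.24% lower of all 1078 reporters. Only the 8 members with a matched sequence could be classed. The other 64 were not, among them miR-467a*, miR-467b*, miR-467d* and miR-669h-3p, which fell. Of the 4 matched ACACAC members all were above background and none passed. Of the 4 matched GUGUGU members, miR-466j and miR-466k rose. miR-467h (72.9, 77.4 and 61.0 against 100.3, 96.5 and 80.2, change 0.15 ± 0.080) and miR-669n did not pass. Outside these families 5 matched reporters were found to hold GUGUGU, in a search that did not cover every chromosome. Of these, miR-1187 read 817, 883 and 808 on the control arrays and 930.1, 982 and 908 with TNF-α and rose (0.40 ± 0.090, adjusted p = 0.0202). miR-574-5p read 2635, 2412 and 1854 on the control arrays and 2327, 2139.7 and 1992 with TNF-α and did not pass (0.12 ± 0.078). Their sequences show how long the GU stretch can be in reporters well above background.
miR-1187: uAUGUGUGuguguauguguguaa
miR-574-5p: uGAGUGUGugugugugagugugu
In these 2 the alternation of G and U runs over 11 and 13 bases. miR-3082-5p (0.11), miR-3097-5p (-0.21) and miR-539-5p (-0.18) did not pass. The 4 outside reporters found with ACACAC in that search, miR-568 (-0.28), miR-574-3p (0.12), miR-3100-3p (-0.069) and miR-362-3p (-0.33), did not pass either.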

How the data were processed

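Total RNA of 6 cultures received a poly(A) tail and an oligonucleotide tag for Cy5 staining, per the labels' protocols, so each array has 1 colour. The authors deposited 1 median density per reporter and array, per the file headers an intensity in linear units, and a table of processed intensities whose scaling is not given in the sources used here. Scanner, software and probe sequences are likewise not given. Densities were corrected with normexp (offset 50), taken to log2 and quantile normalized in limma 3.58.1 under R 4.3.3. All 1078 reporters were fitted with the group as the only term, in a two-sided test with Benjamini-Hochberg adjustment and a threshold of 0.05. No filter on low values was used, because a filter that dim reporters pass through 1 group selects those that differ; filters were alternatives. The background limit is the peak of an array's log2 density distribution plus 3 times the root mean square distance of lower values from it. The families, lists, limit and tests were chosen with earlier results of these data known, although the rule for members reads only names. Every member above background on all 6 arrays or past the threshold is named with its values. Sequences, matched by exact name for 326 of 1078 reporters, and positions are RefSeq's. Repeat type by ACACAC and the density ranges were added after seeing the values. Of the marker lists, endothelium had 0 of 2 above background on all arrays, with miR-126-3p above it on 5 of 6. Striated muscle (1 of 2), stem cells and early embryo (1 of 7, miR-290-5p) and liver (0 of 1) complete those in the results. The procedure was tested on simulated data in which only reporters well above the background peak changed. That test does not cover calls at or near background. Per the series' design text the cultures were grown separately, and the p-values rest on their spread. The number of arrays limits the precision.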

Additional observations from a re-analysis of the deposited data

How the results depend on the processing

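The alternatives were no normalization, median scaling, cyclic loess, subtraction of the background peak, a smaller (8) and a larger offset, 3 filters, the authors' processed table, another variance model, the replicate block and each array left out. Against 10 higher and 4 lower, the number of members called higher was 28 without normalization, 31 with median scaling, 4 with the peak subtracted (271, 335 and 42 of all 1078 reporters, against 84) and 5 to 11 with 1 array left out. The number lower was 8 with median scaling, 2 with offset 8, 9 in the processed table (51, 47 and 117 of all reporters, against 78) and 3 to 4 with 1 array left out. Among the 35 members above background on at least 3 arrays, 5 were higher and 4 lower. There the number higher was 8 with median scaling, 3 with the peak subtracted, 2 with offset 8, 8 with the filter of 32 on all 6 arrays, 8 with the background limit as filter and 1 to 5 with 1 array left out. The number lower was 8 with median scaling, 2 with offset 8, 8 in the processed table and 3 to 4 with 1 array left out. All other counts stayed within 1.5 times.

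No call changed its direction. Sign changes occurred for members that did not pass. Without normalization miR-466q was -0.0043, miR-669a-3-3p -0.21, miR-669a-3p -0.040, miR-669c -0.27 and miR-669e* 0.064. With median scaling miR-669a-3-3p was -0.17, miR-669c -0.23 and miR-669e* 0.11, and with cyclic loess -0.063, -0.12 and 0.088. In the processed table miR-466i-5p was -0.0063, miR-466q -0.017, miR-669a-3-3p -0.21, miR-669a-3p -0.022, miR-669c -0.28 and miR-669e* 0.076. With 1 array left out, miR-466g ranged from -0.051 to 0.029, miR-467c* from -0.20 to 0.016, miR-467e* from -0.30 to 0.12, miR-467f from -0.12 to 0.028, miR-467g from -0.050 to 0.067, miR-669a-3p from -0.022 to 0.13, miR-669c from -0.051 to 0.13, miR-669e* from -0.086 to 0.024, miR-669n from -0.12 to 0.016 and miR-669p* from -0.16 to 0.097. The cause of these shifts was not tested.

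With the replicate block, 9 members were higher and 3 lower, and 4 and 3 of those above background on at least 3 arrays; the calls of miR-466c-5p (0.33, adjusted p = 0.073) and miR-467a* (-0.39, adjusted p = 0.069) were lost. The title numbers were not taken to pair the cultures. Same-numbered deviations correlated at -0.018, -0.0085 and 0.11 over all reporters. Over the 202 above background on all 6 arrays they correlated at 0.22, -0.0054 and 0.33. There control 1 with TNF-α 3 gave -0.25 and control 3 with TNF-α 1 gave -0.29. Deviations from the group mean cancel out within a group, so these values depend on each other and cannot show whether the cultures were paired. Signal over background limits what can be read for the 33 members above it on no array, which have no fold.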
